A study of Mus musculus with 6 samples.

Results

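Translation initiation and elongation factors were examined in mouse brain microglia after transient middle cerebral artery occlusion (tMCAO), a surgical model of ischaemic stroke, and after sham surgery. The members were chosen by a rule on gene symbol that used no measured values, though earlier results of these data were known. They are annotated genes whose symbol begins with Eif1 to Eif6, Eef1 or Eef2, leaving out the Eif2ak kinases. The rule found 64 genes among the 38207 genes and loci in the deposited table. All mice were WT, per the labels, and there were 3 sham and 3 tMCAO libraries, each made from a pool of 30 mice. The sources used here do not state the age and sex of the mice, the time from surgery to collection, or how the cells were isolated. The labels name microglia that were isolated, yet the RNA protocol names tissue as its starting material, so the purity of the microglia is not settled by them. Total RNA was converted to cDNA with a PCR-based nanopore kit, and the values below are read counts per gene or the deposited CPM, a count scaled to the library's total. Since nothing records how the pools were prepared, p-values measure only the spread between them, which may be partly technical.

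Translation of most messenger RNAs begins when the eIF4F complex, made of the cap-binding protein eIF4E, the scaffold eIF4G and the RNA helicase eIF4A, loads the 5′ end of the message onto a small ribosomal subunit. That subunit already carries eIF3, eIF1, eIF1A and the initiator tRNA held by eIF2, and eIF5, eIF5B and eIF6 act around start codon recognition and the joining of the large subunit. During elongation eEF1A delivers each aminoacyl-tRNA, the eEF1B subunits recharge eEF1A with GTP, and eEF2 moves the ribosome along the message. In brain ischaemia, control of protein synthesis is best known through phosphorylation of eIF2 and eEF2, which a count of messenger RNA does not measure.

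Total counts ranged from 1855495 to 2614512 per library, and the tMCAO libraries were all shallower than the sham libraries. The 8 microglial marker genes were detected in every library, at a summed level of 23091 to 24155 CPM in sham and 21704 to 24305 CPM in tMCAO, and 2 of the 8 were called lower in tMCAO. Of 8 proliferation genes, 7 were tested and 7 rose (summed level 62.0 to 64.6 CPM in sham, 287 to 487 in tMCAO), and 3 of 6 border-associated macrophage genes rose (169 to 215 against 317 to 417 CPM). Markers of astrocytes (136 to 405 against 63.0 to 88.4 CPM, 2 of 4 tested lower) and of erythroid cells (955 to 6040 against 215 to 380 CPM, 0 of 3 tested called) stood lower in tMCAO, as did 12 of 13 mitochondrial genome transcripts (17887 to 33504 against 8299 to 10361 CPM). Choroid plexus markers varied widely, from 8627 to 44619 CPM in sham and 2271 to 9960 CPM in tMCAO (1 of 6 lower), and in sham 2 their sum was above the microglial sum. Monocyte genes overlapped between groups (74.6 to 93.2 against 76.7 to 191 CPM, 3 of 6 tested higher), as did neutrophil genes (1789 to 2273 against 407 to 1800 CPM, 1 of 7 lower) and oligodendrocyte genes (186 to 1029 against 140 to 339 CPM, 1 of 6 lower). Endothelial genes also overlapped (77.6 to 109 against 63.0 to 155 CPM, 0 of 4 called). The neuron sum (10.3 to 12.2 against 4.26 to 8.86 CPM, 0 tested) and the lymphocyte sum (41.3 to 43.6 against 25.9 to 38.9 CPM, 0 of 1 called) were apart and lower in tMCAO. None of these lists had a gene at 0 in all libraries, and their part in the results on translation factors was not tested. The counts called in each list stand beside 9.17% higher and 8.96% lower of all genes and loci tested. In bulk RNA, fewer cells of a type and less RNA per cell cannot be told apart.

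Of the 64 translation factor genes, 57 passed the filter on low counts, 5 rose in tMCAO and 1 fell. The genes that rose were Eif4a1, Eif4g1, Eif4e2, Eif4g2 and Eef2, and the gene that fell was Eef1b2. The share of tested members that changed was 10.5%, against 18.1% of the 13127 genes and loci tested (edgeR's quasi-likelihood test, Benjamini-Hochberg adjusted p under 0.05). By direction, the background was 9.17% higher and 8.96% lower. The other 51 tested members were not called. An unadjusted edgeR p under 0.05 was found for 14 of the 57 tested members, beside 4254 of the 13127 genes and loci tested.

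The median log2 fold change over the 57 tested members was 0.07, beside 0.00 over all genes and loci and 0.09 over annotated genes, and single members lay between -0.67 and 1.36. Fold changes were positive for 36 members and negative for 21. Over annotated genes tested, 4865 were positive and 3663 negative, and over all genes and loci 6566 and 6561. The SD of the members' log2 fold changes was 0.40, against 0.89 over all genes and loci and 0.84 over annotated genes. Their median standard error was 0.18, against 0.32 and 0.27. These sets were not matched for the level of counts. The CPM values of the groups did not overlap for 25 members (43.9%), 19 of them higher and 6 lower in tMCAO, where the background was 37.8% of all tested genes, 23.3% higher and 14.6% lower. Scaling by library totals in place of TMM factors moved the median of the members from 0.07 to 0.19 and that of all genes by 0.11, so CPM ratios read higher than the fitted fold changes. The plot of fold changes by role gives each tested member with its standard error.

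**Figure D1:**
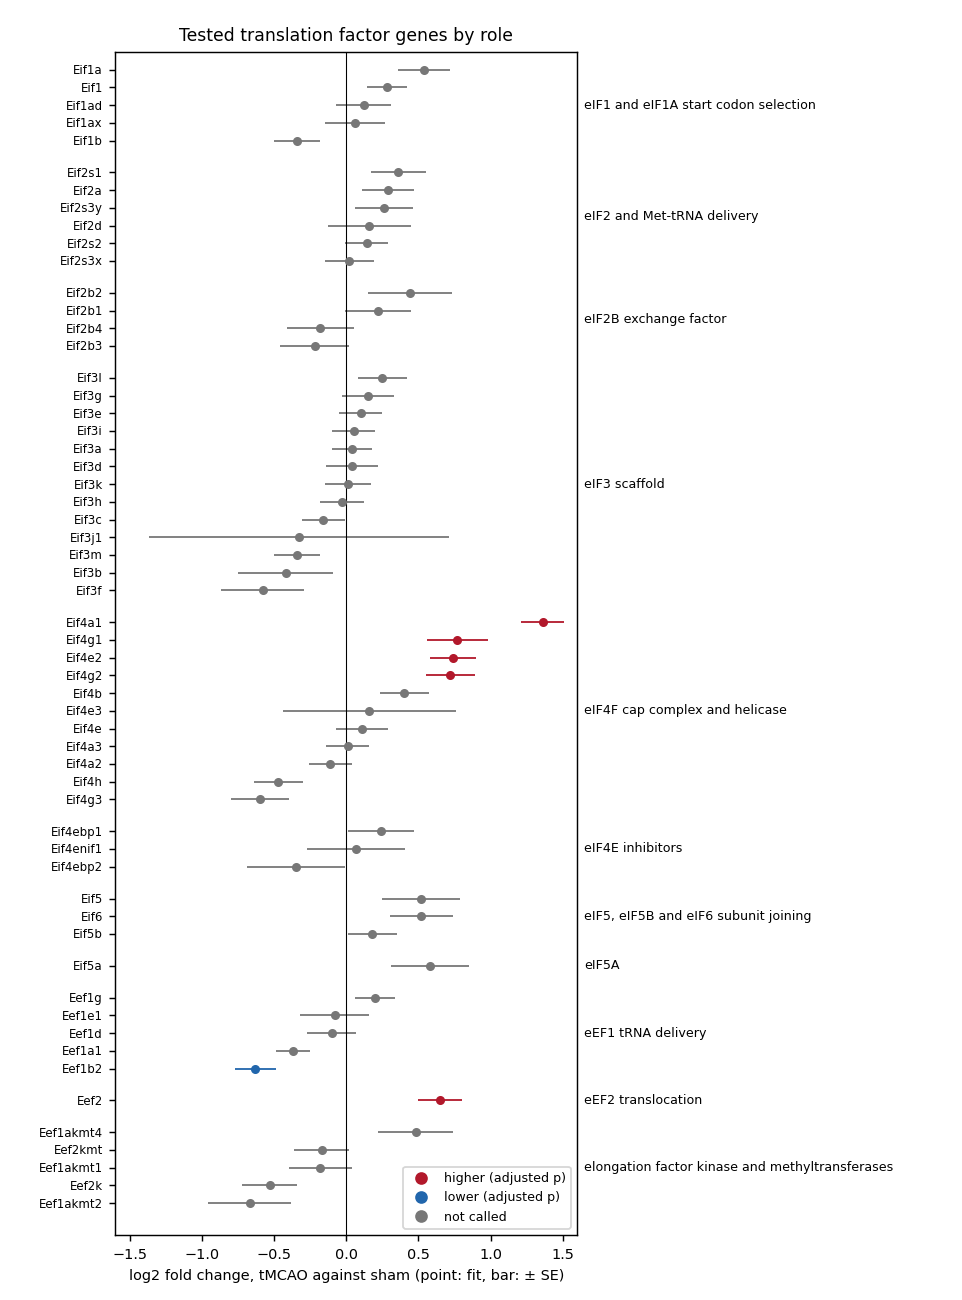
Fitted log2 fold change of tMCAO against sham (x axis; points, with bars of ± 1 standard error) for the 57 tested translation factor genes, grouped by role. Eif4a1 lies farthest to the right at 1.36, and Eif4g1, Eif4e2 and Eif4g2 of the same role group lie between 0.72 and 0.77. Eef2 is at 0.65 and Eef1b2 is the only gene called lower, at -0.63.

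The group of eIF4F genes and their relatives held 4 of the 5 members that rose. Of these, Eif4a1 and Eif4g1 encode eIF4F subunits, and Eif4g2 and Eif4e2 encode relatives. Of 12 genes in this group, 11 were tested, 4 rose, 0 fell and 7 were not called, a share of 36.4% beside the 18.1% of all genes and loci that changed and the 9.17% that rose. No test compared this group with the others, and the groups were drawn with earlier results of these data known. Over the 11 tested genes the median log2 fold change was 0.16 and the range was -0.60 to 1.36. Summed over the group, the level was 1319, 1234 and 1256 CPM in sham libraries 1 to 3 and 1787, 1771 and 1706 CPM in tMCAO libraries 1 to 3. The groups did not overlap, and the mean rose from 1270 ± 44.2 to 1755 ± 42.9 CPM (SD, n = 3), a ratio of 1.38.

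Eif4a1 (ENSMUSG00000059796), which encodes the DEAD-box helicase that unwinds structure in the 5′ end of messages, had the largest rise among the tested members. Eif4a1 measured 123, 113 and 104 CPM in sham libraries 1 to 3 and 345, 312 and 288 CPM in tMCAO libraries 1 to 3. Every tMCAO library was more than any sham library, with no overlap. The means were 113 ± 9.54 and 315 ± 28.9 CPM (SD, n = 3), a ratio of 2.78, and the fitted log2 fold change was 1.36 ± 0.15 (SE; edgeR adjusted p = 0.000121). It was called under each of the 15 alternatives, with adjusted p from 9.97e-15 to 0.00180.

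Its close paralogue Eif4a2 (ENSMUSG00000022884) encodes another form of the same helicase. Eif4a2 measured 309, 303 and 304 CPM in sham and 281, 313 and 329 CPM in tMCAO. The lowest and the highest of the 6 libraries were both tMCAO libraries, so the groups overlapped, and the gene was not called (log2 fold change -0.11 ± 0.15 SE, edgeR adjusted p = 0.672). Counts were not divided by transcript length, so only the difference between groups in the ratio of the paralogues is read here. The log2 ratio of Eif4a1 to Eif4a2 was -1.33, -1.42 and -1.55 in sham and 0.30, 0.00 and -0.19 in tMCAO. The groups did not overlap and differed by 1.47 (exact permutation test, two-sided, p = 0.10, the smallest value that 3 against 3 libraries can give; adjusted p = 0.233 over the 7 pairs compared).

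The promoters of these paralogues are shown because the pair differed in this ratio. The sequences are from RefSeq, GRCm38.p6, and each gives the 250 bases before the listed start site, 5′ to 3′ on the strand of the gene. Capitals mark an E-box, searched as CACGTG, which reads the same on both strands. The Eif4a1 window lies on the minus strand at chr11:69672424-69672673 and the Eif4a2 window on the plus strand at chr16:23107218-23107467.
Eif4a1: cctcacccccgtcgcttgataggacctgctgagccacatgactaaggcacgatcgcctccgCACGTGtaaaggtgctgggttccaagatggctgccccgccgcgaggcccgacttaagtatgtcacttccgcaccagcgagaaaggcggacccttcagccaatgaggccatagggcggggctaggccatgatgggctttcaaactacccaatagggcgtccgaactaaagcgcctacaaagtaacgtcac
Eif4a2: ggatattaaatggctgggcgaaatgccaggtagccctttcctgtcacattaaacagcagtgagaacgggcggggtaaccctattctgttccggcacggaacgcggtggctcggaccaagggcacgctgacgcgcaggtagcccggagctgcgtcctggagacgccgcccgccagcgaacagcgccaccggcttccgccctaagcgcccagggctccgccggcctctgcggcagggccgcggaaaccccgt
The Eif4a1 window holds an E-box whose first base is at -189 from the start site, and its GC content is 58.8%. No E-box was found in the Eif4a2 window, whose GC content is 66.4%. These matches describe the letters alone, and their bearing on the ratio was not tested.

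Eif4g1 (ENSMUSG00000045983) encodes the main scaffold that bridges eIF4E, eIF4A and eIF3. Eif4g1 measured 35.4, 35.7 and 47.4 CPM in sham and 78.8, 91.1 and 51.7 CPM in tMCAO. The groups did not overlap, though tMCAO library 3 lay just above sham library 3. The means were 39.5 ± 6.86 and 73.8 ± 20.2 CPM (SD, n = 3) and the log2 fold change was 0.77 ± 0.21 (SE; edgeR adjusted p = 0.0237). The call was lost without sham 1 (adjusted p = 0.117), sham 2 (0.0673), tMCAO 1 (0.0537) or tMCAO 2 (0.0926), and with a replicate block (0.0671), over alternatives whose adjusted p ran from 0.000972 to 0.117.

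Eif4g2 (ENSMUSG00000005610) encodes a relative of eIF4G that lacks the eIF4E-binding region and takes part in cap-independent initiation. Eif4g2 measured 256, 215 and 185 CPM in sham and 375, 385 and 415 CPM in tMCAO. No tMCAO library came near the sham range. The means were 219 ± 35.6 and 392 ± 20.8 CPM (SD, n = 3) and the log2 fold change was 0.72 ± 0.17 (SE; edgeR adjusted p = 0.00952). Its call was lost without sham 3, at an adjusted p of 0.0583, in a range of 3.00e-05 to 0.0583.

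Eif4g3, the other full-length eIF4G scaffold, is given after its values were seen. Eif4g3 measured 66.2, 44.8 and 65.0 CPM in sham and 49.2, 39.3 and 36.7 CPM in tMCAO. Sham library 2 lay inside the tMCAO range, and the gene was not called (log2 fold change -0.60 ± 0.20 SE, edgeR adjusted p = 0.0512, range 0.0324 to 0.204). It was called lower with upper-quartile scaling, with annotated genes only and without sham 2. The log2 ratio of Eif4g1 to Eif4g3 was -0.90, -0.33 and -0.46 in sham and 0.68, 1.21 and 0.49 in tMCAO. The sets did not overlap and differed by 1.36 (exact permutation test, two-sided, p = 0.10, adjusted p = 0.233). For Eif4g1 to Eif4g2 the difference was 0.02 (exact permutation test, p = 1.00, adjusted p = 1.00).

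Eif4e2 (ENSMUSG00000026254) encodes a cap-binding relative of eIF4E, also called 4EHP, that does not bind eIF4G and is known as a translational repressor. Eif4e2 measured 62.8, 57.5 and 58.1 CPM in sham and 102, 110 and 112 CPM in tMCAO. Both groups were tight and did not overlap, with means of 59.5 ± 2.92 and 108 ± 5.25 CPM (SD, n = 3). The log2 fold change was 0.74 ± 0.16 (SE; edgeR adjusted p = 0.00781), and the gene was called under each of the 15 alternatives, with adjusted p from 0.000599 to 0.0422.

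Eif4e, the canonical cap-binding protein, measured 62.8, 68.2 and 71.5 CPM in sham and 87.2, 66.8 and 83.1 CPM in tMCAO. The groups overlapped through tMCAO library 2, and the gene was not called (log2 fold change 0.11 ± 0.18 SE, edgeR adjusted p = 0.710). The log2 ratio of Eif4e to Eif4e2 was 0.00, 0.25 and 0.30 in sham and -0.23, -0.72 and -0.43 in tMCAO. Every tMCAO ratio was lower than every sham ratio, with a difference of -0.64 (exact permutation test, two-sided, p = 0.10, adjusted p = 0.233). Eif4e3, a further cap-binding relative named after its values were seen, was sparse and uneven, at 2.53, 11.5 and 14.5 CPM in sham and 13.8, 16.7 and 4.79 CPM in tMCAO.

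**Figure D2:**
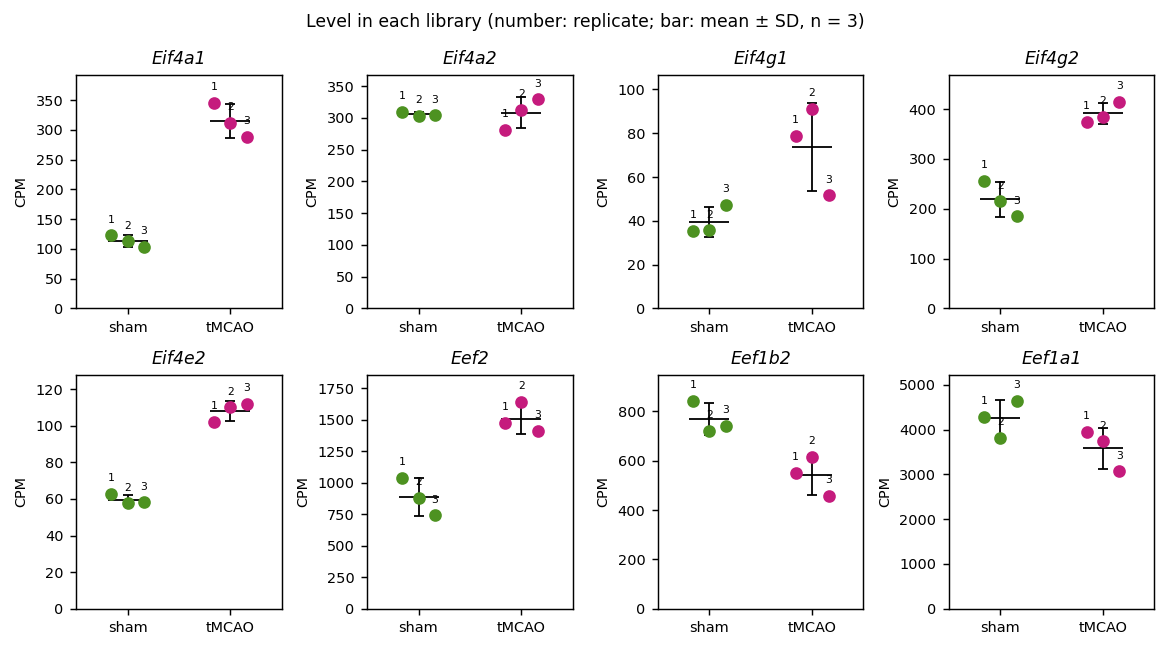
CPM (y axis, from 0) in each library for 8 translation factor genes, with sham in green and tMCAO in magenta, replicate numbers above the points, and bars for the mean ± SD (n = 3). The groups are apart for Eif4a1, Eif4g1, Eif4g2, Eif4e2, Eef2 and Eef1b2, and overlap for Eif4a2 and Eef1a1.

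Eif4b and Eif4h, cofactors that stimulate the eIF4A helicase, are also given after their values were seen. Eif4b measured 103, 113 and 85.3 CPM in sham and 158, 153 and 125 CPM in tMCAO. Eif4h measured 143, 132 and 155 CPM in sham and 127, 127 and 85.2 CPM in tMCAO. The groups did not overlap for either cofactor, Eif4b standing higher and Eif4h lower in tMCAO. Neither was called: the log2 fold change was 0.40 ± 0.17 for Eif4b (SE; edgeR adjusted p = 0.122) and -0.47 ± 0.17 for Eif4h (adjusted p = 0.0744). Eif4b was called with library totals (adjusted p = 0.0451, range 0.0451 to 0.386) and Eif4h with upper-quartile scaling (0.0431, range 0.0431 to 0.207).

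The products of the Eif4ebp genes bind eIF4E in place of eIF4G until mTORC1 phosphorylates them. Eif4ebp1 measured 62.8, 68.6 and 58.9 CPM in sham and 94.1, 103 and 48.5 CPM in tMCAO. Among the 6 libraries, the highest and the lowest were both from tMCAO, and the log2 fold change was 0.24 ± 0.23 (SE; edgeR adjusted p = 0.522). Eif4ebp2 measured 14.8, 13.9 and 31.4 CPM in sham and 20.2, 19.9 and 11.2 CPM in tMCAO, with a log2 fold change of -0.35 ± 0.34 (SE; edgeR adjusted p = 0.515). Of the 4 genes grouped as eIF4E inhibitors, not all of them Eif4ebp genes, 3 were tested and 0 were called. Eif4ebp3 had 0 counts in all 6 libraries, which allows up to 3 counts, or 1.15 to 1.62 CPM, per library by counting error alone.

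**Figure D3:**
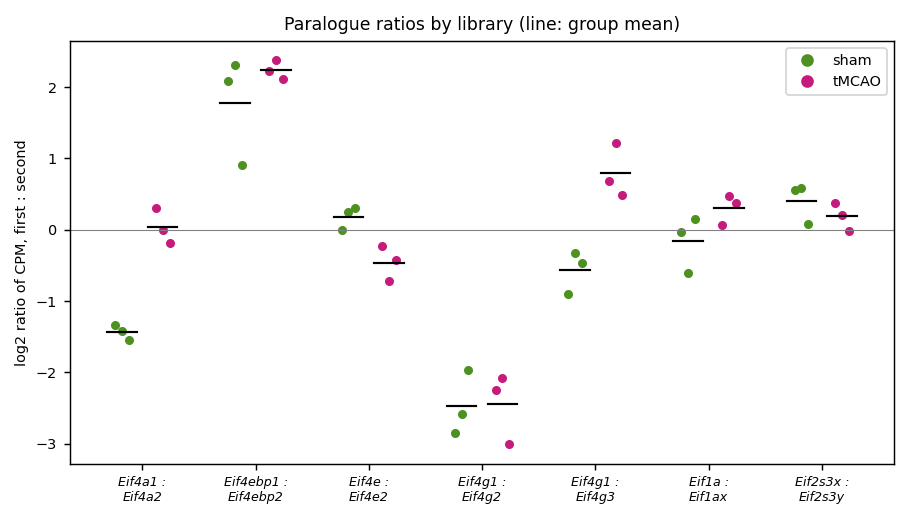
Log2 ratio of CPM between paralogues (y axis) in each sham (green) and tMCAO (magenta) library, with lines at the group means, for 7 pairs. The groups are apart for Eif4a1 to Eif4a2 (mean -1.44 against 0.03), Eif4g1 to Eif4g3 (-0.56 against 0.79) and Eif4e to Eif4e2 (0.18 against -0.46), and overlap for the other 4 pairs; the height of a pair on the axis is not corrected for transcript length.

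The eIF1 and eIF1A group is named for the factors that hold the scanning subunit and select the start codon. Its 5 genes were all tested and 0 were called. Eif1a (ENSMUSG00000057561), the autosomal eIF1A gene, measured 35.0, 32.9 and 42.5 CPM in sham and 57.6, 58.2 and 58.0 CPM in tMCAO. The tMCAO libraries were nearly equal and all above sham. The log2 fold change was 0.54 ± 0.18 (SE; edgeR adjusted p = 0.0562, range 0.0277 to 0.209), and the gene was called with library totals and with no filter on low counts. Its X-linked copy Eif1ax had a log2 fold change of 0.06 ± 0.21 (SE; edgeR adjusted p = 0.868), and reads of these near-identical copies may be shared between them.

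Eif1, which guards start codon accuracy and is given after its values were seen, was among the more abundantly counted members. Eif1 measured 1032, 1088 and 1258 CPM in sham and 1640, 1589 and 1255 CPM in tMCAO. The tMCAO library 3 fell within the sham range, and the gene was not called (log2 fold change 0.28 ± 0.14 SE, edgeR adjusted p = 0.169), except without tMCAO 3 (0.0470, range 0.0470 to 0.502). Its paralogue Eif1b measured 116, 126 and 134 CPM in sham and 103, 105 and 114 CPM in tMCAO. All tMCAO values were below the sham values, without a call (log2 fold change -0.34 ± 0.16 SE, edgeR adjusted p = 0.163).

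The eIF2 group delivers the initiator tRNA, and all 6 of its genes were tested and not called. Their fold changes were all positive, where 4865 of 8528 annotated genes tested were positive. The 6 fold changes ran from 0.02 to 0.36 on the log2 scale with a median of 0.21. The sign of the lowest, Eif2s3x, varied with the settings, between -0.07 and 0.13. Eif2s1, the alpha subunit whose phosphorylation blocks initiation, measured 87.7, 64.2 and 76.1 CPM in sham and 108, 85.7 and 121 CPM in tMCAO. The groups overlapped between sham 1 and tMCAO 2 (log2 fold change 0.36 ± 0.19 SE, edgeR adjusted p = 0.218). Eif2a, a separate initiator tRNA-binding protein that is not a subunit of eIF2, measured 45.5, 45.6 and 44.0 CPM in sham and 68.0, 58.7 and 52.7 CPM in tMCAO (0.29 ± 0.18 SE, adjusted p = 0.282).

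The eIF2B complex recharges eIF2 with GTP, and of its 5 genes 4 were tested and 0 called. Eif2b1, its alpha subunit, measured 21.9, 26.6 and 22.9 CPM in sham and 26.1, 28.6 and 35.7 CPM in tMCAO. Eif2b2, its beta subunit, measured 12.2, 21.8 and 13.4 CPM in sham and 29.1, 23.7 and 17.6 CPM in tMCAO. Both genes overlapped between groups, with log2 fold changes of 0.22 ± 0.23 (SE; edgeR adjusted p = 0.551) and 0.44 ± 0.29 (adjusted p = 0.332). The epsilon subunit gene Eif2b5, which carries the exchange activity, had 3, 10 and 8 counts in sham and 4, 6 and 4 in tMCAO and was not tested.

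The eIF3 scaffold was close to level between groups. Of its 14 genes, 13 were tested, 0 were called and 0 had an unadjusted p under 0.05. Their log2 fold changes ran from -0.58 to 0.25 with a median of 0.01. The summed level was 1463, 1519 and 1565 CPM in sham and 1655, 1579 and 1581 CPM in tMCAO, a ratio of 1.06 between means of 1516 ± 51.6 and 1605 ± 43.5 CPM (SD, n = 3). These sums did not overlap, and they are on the CPM scale, which reads higher than the fitted fold changes.

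Eif3a, the largest eIF3 subunit, measured 213, 190 and 218 CPM in sham and 237, 232 and 222 CPM in tMCAO (log2 fold change 0.04 ± 0.14 SE, edgeR adjusted p = 0.892). Eif3f, a core subunit, measured 16.9, 11.9 and 20.3 CPM in sham and 11.3, 10.8 and 13.3 CPM in tMCAO (-0.58 ± 0.29 SE, edgeR adjusted p = 0.182). Eif3m measured 155, 165 and 153 CPM in sham and 146, 119 and 142 CPM in tMCAO (-0.34 ± 0.16 SE, edgeR adjusted p = 0.172). Only Eif3m of these 3 was apart in the lower direction, Eif3a was apart in the higher direction, and Eif3f overlapped.

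Eif3j1, a loosely bound eIF3 subunit named after its values were seen, varied more within groups than any other tested member. Eif3j1 measured 11.8, 84.4 and 88.0 CPM in sham and 85.7, 66.3 and 10.7 CPM in tMCAO. The low libraries were sham 1 and tMCAO 3, and the SD of its log2 level was 1.63 within sham and 1.61 within tMCAO, where the median member had 0.15 and 0.16. A wider set of genes was also low in these 2 libraries. In both, 87 of the 13127 tested genes and loci (0.663%) were at least 3-fold below the lowest of the other 4 libraries. Eif3j1 was the only member among the 87, and 0 genes were at least 3-fold above the highest of the other 4. Other pairs of libraries were not counted, so these counts have no reference. In GENCODE M21, Eif3j1 shares 1107 bases, 19.0% of its exon length, with Spg11 on the opposite strand, and the sources used here do not state whether counting used the strand. Without sham 1 and tMCAO 3, 5 members were higher and 0 lower, and the Eef1b2 call was lost.

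**Figure D4:**
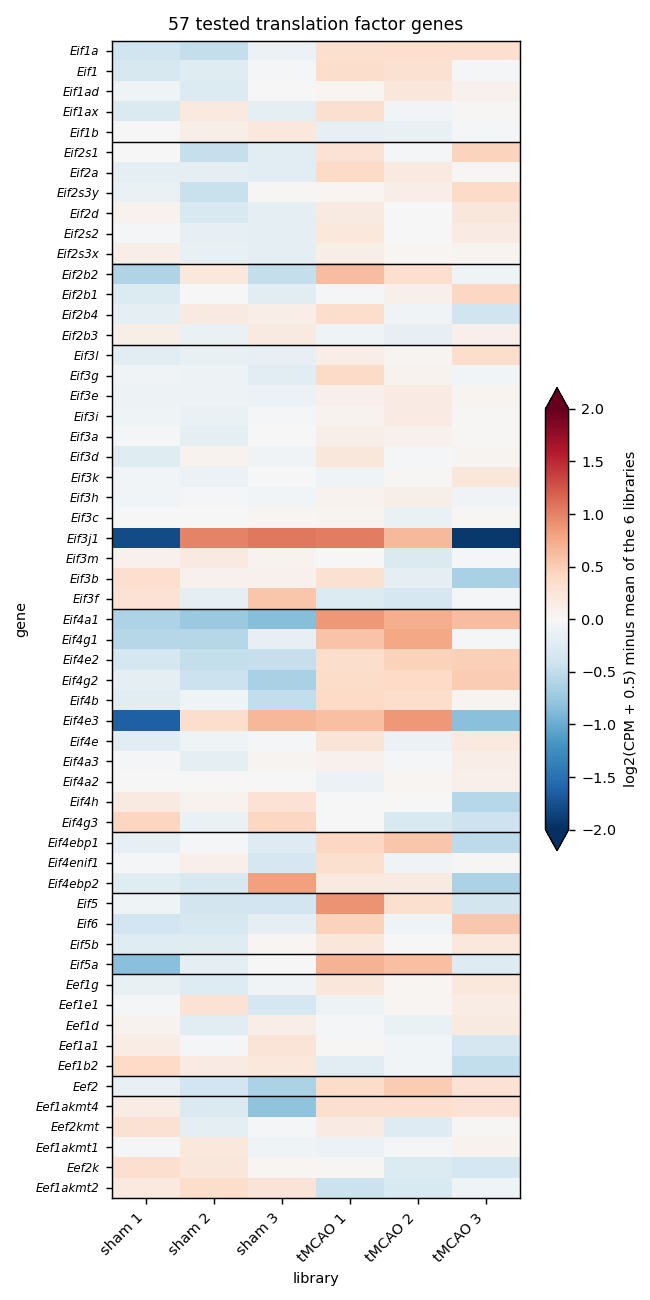
Log2(CPM + 0.5) of each tested translation factor gene in each library, as the difference from its mean over the 6 libraries (colour scale), with genes in role order and lines between roles. Eif3j1 and Eif4e3 are lowest in sham 1 and tMCAO 3, while Eif4a1, Eif4e2, Eif4g2 and Eef2 split by group in all 6 libraries.

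Factors of subunit joining gave 3 tested genes, 0 calls and a median log2 fold change of 0.52. Eif5, which triggers GTP hydrolysis by eIF2, measured 32.5, 26.6 and 26.4 CPM in sham and 64.5, 43.1 and 26.6 CPM in tMCAO. Libraries tMCAO 1 and tMCAO 2 were above the sham range and tMCAO 3 was inside it, and the gene was not called (log2 fold change 0.52 ± 0.27 SE, edgeR adjusted p = 0.193). Without tMCAO 3 it was called, at 0.79 and an adjusted p of 0.0308, in a range of 0.0308 to 0.653. Eif6, which keeps free large subunits from joining early, measured 28.7, 29.7 and 32.5 CPM in sham and 51.7, 35.0 and 54.3 CPM in tMCAO. The groups were apart, but the gene was not called (log2 fold change 0.52 ± 0.22 SE, edgeR adjusted p = 0.121), except without tMCAO 2 (0.0469, range 0.0469 to 0.468).

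Eif5a, the hypusine-bearing factor that helps ribosomes through stalling peptide bonds, followed a like pattern. Eif5a measured 103, 160 and 184 CPM in sham and 297, 280 and 153 CPM in tMCAO. Library tMCAO 3 lay inside the sham range, and the gene was not called (log2 fold change 0.58 ± 0.27 SE, edgeR adjusted p = 0.169, range 0.00258 to 0.424). It was called without tMCAO 3, at 0.81 and an adjusted p of 0.0344, and with no filter on low counts. The second eIF5A gene, Eif5a2, had 2, 2 and 3 counts in sham and 0, 3 and 2 in tMCAO.

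Among elongation factors, Eef2 rose and Eef1b2 fell. Eef2 (ENSMUSG00000034994), the translocase, measured 1038, 880 and 742 CPM in sham and 1477, 1644 and 1411 CPM in tMCAO. The lowest tMCAO library stood above the highest sham library. The means were 887 ± 148 and 1511 ± 120 CPM (SD, n = 3), and the log2 fold change was 0.65 ± 0.15 (SE; edgeR adjusted p = 0.00995). Without sham 3 the call was lost, at an adjusted p of 0.0608, in a range of 1.15e-05 to 0.0608.

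Eef1b2 (ENSMUSG00000025967), a subunit of the exchange complex that recharges eEF1A, measured 843, 721 and 743 CPM in sham and 551, 617 and 457 CPM in tMCAO. All tMCAO libraries were below all sham libraries. The means were 769 ± 64.8 and 542 ± 79.9 CPM (SD, n = 3), and the log2 fold change was -0.63 ± 0.14 (SE; edgeR adjusted p = 0.00890). The call was lost without sham 1 (0.0571) and without both sham 1 and tMCAO 3 (0.0562), in a range of 0.00310 to 0.0571.

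Eef1a1 (ENSMUSG00000037742), which carries aminoacyl-tRNA to the ribosome and drew more counts than any other member, measured 4288, 3814 and 4648 CPM in sham and 3946, 3742 and 3067 CPM in tMCAO. Libraries tMCAO 2 and tMCAO 3 were below every sham library and tMCAO 1 lay inside the sham range. The log2 fold change was -0.37 ± 0.12 (SE; edgeR adjusted p = 0.0556, range 0.0302 to 0.219), called lower with upper-quartile scaling, with limma voom and with annotated genes only. Eef1a2, the form typical of neurons and muscle, had 2 counts in sham 2 and 0 in the other 5 libraries.

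Cytosolic ribosomal protein genes also stood lower in tMCAO, as did Eef1b2 and, without a call, Eef1a1, while Eef2 rose. Of the ribosomal protein genes, 44 of 77 tested were lower and 2 higher, beside 8.96% lower and 9.17% higher of all genes and loci. Their sum was 129014 to 149719 CPM in sham and 109360 to 115893 CPM in tMCAO. Whether the same process set the ribosomal protein genes and the elongation factors was not tested. The other eEF1B genes Eef1d and Eef1g were not called, at log2 fold changes of -0.10 ± 0.17 and 0.20 ± 0.14 (SE). Summed over the 64 genes, the members held 11765 ± 559 CPM in sham and 12822 ± 960 CPM in tMCAO (SD, n = 3), with overlap. Without Eef1a1 the sums were 7514 ± 163 and 9237 ± 500 CPM, apart, at a ratio of 1.23. These sums are on the CPM scale, which reads higher than the fitted fold changes. As a share of annotated genes other than mitochondrial and ribosomal protein genes, all 64 members held 1.71% in sham and 1.71% in tMCAO.

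The kinase and methyltransferases that modify elongation factors gave 5 tested genes of 6 and 0 calls, with a median of -0.18. Eef2k, the kinase that phosphorylates and slows eEF2, measured 58.2, 53.9 and 47.0 CPM in sham and 46.8, 37.7 and 35.7 CPM in tMCAO. The groups were apart by a narrow margin, and the gene was not called (log2 fold change -0.53 ± 0.19 SE, edgeR adjusted p = 0.0727, range 0.0394 to 0.236). It was called lower with upper-quartile scaling and with annotated genes only. Eef1akmt2, an eEF1A lysine methyltransferase, measured 13.1, 14.7 and 13.8 CPM in sham and 8.37, 9.16 and 10.7 CPM in tMCAO, apart but not called (-0.67 ± 0.29 SE, edgeR adjusted p = 0.123). The remaining untested members were Eif3j2 and Eef1akmt3, with 0 to 8 counts per library, and Eif4e1b, an oocyte cap-binding gene with 0 counts throughout.

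Short sequence matches near the start sites of Eif4g1, Eef2, Eif4e2 and Eef1b2 are shown to place them beside the 2 paralogue promoters above. The motifs searched, on both strands, were the E-box CACGTG, the ETS core CCGGAAGT and the cyclic AMP response element TGACGTCA. RefSeq windows of 250 bases before to 50 bases after a start site were given for 48 of the 64 members and not for Eif4g2, which was not searched. Capitals mark the match, and the position of its first base is counted from the start site. All windows are on the plus strand of GRCm38.p6, at chr16:20672477-20672776 for Eif4g1, chr10:81176381-81176680 for Eef2, chr1:87213661-87213960 for the first of 3 listed starts of Eif4e2, and chr1:63176581-63176880 for Eef1b2.
Eif4g1 at -54: gcagtgggtgtCACGTGatggggcggag
Eif4g1 at 16: tctgcgccggtCACGTGgggcgctggct
Eef2 at -43: cccggcgccgtCACGTGacgcacccaac
Eef2 at 3: aggccgggcgtTGACGTCAgcggtctcttc
Eif4e2 at 6: tcgccagccaaCCGGAAGTagccgggccct
Eef1b2 at 2: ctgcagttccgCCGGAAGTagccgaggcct
The E-box was in 13 of 48 member genes (27.1%), and in 8.09% of all genes with a window. Among these members were Eif4a1, Eif4g1, Eef2, Eif4e, Eef2k, Eif1b, Eif3a, Eif3f, Eif4h, Eif5a and Eif5a2. Of the called members with a window, Eif4a1, Eif4g1 and Eef2 held an E-box, and Eif4e2 and Eef1b2 held none. The ETS core was in 8 member genes (16.7%), against 4.31% of all genes, and the cyclic AMP response element was in 1 member, Eef2, against 2.03% of all genes. The members and all genes with a window were not matched for GC content or for expression. A match is a description of letters, not of binding.

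Genes that act beside these factors were read from 10 lists of 108 symbols. Of 96 tested, 6 rose and 0 fell (6.25%), below the 18.1% of all genes and loci that changed (9.17% higher, 8.96% lower). Their median log2 fold change was 0.10, and the counts per list that follow are read against the same background. Of the 96 tested, 61 had a positive fold change, as did 4865 of the 8528 annotated genes tested. In the list of eIF2 kinases and phosphatase, 2 of 8 tested genes rose. Ppp1r15a, also called GADD34, which directs removal of phosphate from eIF2, measured 255, 275 and 344 CPM in sham and 661, 550 and 795 CPM in tMCAO. The groups were apart, with a log2 fold change of 1.09 ± 0.18 (SE; edgeR adjusted p = 0.00163). Ppp1r15b, its constitutive relative, also rose (1.00 ± 0.32 SE, edgeR adjusted p = 0.0467, range 0.00328 to 0.173), but tMCAO 3 at 14.4 CPM lay within the sham range of 9.94 to 14.7 CPM. Its call was lost with upper-quartile scaling, DESeq2, limma voom, a replicate block and annotated genes only, and without sham 1 (0.149), sham 3 (0.157), tMCAO 1 (0.173) or tMCAO 2 (0.113). Eif2ak2, the double-stranded RNA-activated eIF2 kinase PKR, measured 29.5, 40.0 and 37.5 CPM in sham and 51.7, 62.0 and 49.0 CPM in tMCAO and was not called (0.48 ± 0.20 SE, edgeR adjusted p = 0.115).

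Genes downstream of eIF2 phosphorylation gave 1 call among 4 tested. Ddit3, also called CHOP, measured 113, 97.5 and 122 CPM in sham and 178, 210 and 186 CPM in tMCAO, apart, with a log2 fold change of 0.67 ± 0.16 (SE; edgeR adjusted p = 0.0110). Its call was lost without sham 1 (0.0633) and without sham 2 (0.0504), in a range of 0.000661 to 0.0633. Atf4, the transcription factor whose own translation rises when eIF2 is phosphorylated, measured 151, 145 and 172 CPM in sham and 220, 209 and 159 CPM in tMCAO. Its groups overlapped through tMCAO 3, and it was not called (0.20 ± 0.16 SE, edgeR adjusted p = 0.407).

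In the mTORC1 list 1 of 13 tested genes rose, Larp1, which binds messages of the translation machinery. Larp1 measured 10.5, 9.12 and 12.6 CPM in sham and 20.2, 23.7 and 20.2 CPM in tMCAO (0.87 ± 0.26 SE, edgeR adjusted p = 0.0318, range 0.0212 to 0.114), and the groups were apart. The call of Larp1 was lost with DESeq2 (0.110) and a replicate block (0.0735), and without sham 1 (0.114), sham 2 (0.0910), sham 3 (0.0590), tMCAO 2 (0.0933) or sham 1 and tMCAO 3 (0.113). Fold changes were positive for 12 of the 13 genes, with a median of 0.43 and a median standard error of 0.38. Mtor itself was at 3.44 to 4.36 CPM in sham and 5.86 to 11.9 CPM in tMCAO, apart but not called (0.98 ± 0.39 SE, edgeR adjusted p = 0.102). Deptor was the negative exception (-0.89 ± 0.38 SE, edgeR adjusted p = 0.123).

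Among cytosolic aminoacyl-tRNA synthetases, 1 of 22 tested rose, and 16 had positive fold changes with a median of 0.20. The valyl-tRNA synthetase gene Vars measured 6.33, 11.5 and 6.12 CPM in sham and 37.4, 41.0 and 10.1 CPM in tMCAO, with tMCAO 3 inside the sham range (1.73 ± 0.50 SE, edgeR adjusted p = 0.0462, range 1.27e-07 to 0.153). The call of Vars was lost with limma voom and annotated genes only, and without sham 1 (0.153), sham 3 (0.153), tMCAO 1 (0.114) or tMCAO 2 (0.119). Of 9 mitochondrial translation factors tested, 1 rose: Tsfm, the exchange factor of mitochondrial elongation, at 4.64, 5.15 and 5.35 CPM in sham and 14.3, 14.6 and 12.8 CPM in tMCAO. Its log2 fold change was 1.33 ± 0.31 (SE; edgeR adjusted p = 0.0103), and its call was lost without sham 1 (0.0538) and without sham 1 and tMCAO 3 (0.0582), the highest of its range from 0.00414. The other 5 lists had 0 calls. Among their genes were Pabpc1, the poly(A)-binding protein that contacts eIF4G (0.27 ± 0.23 SE, edgeR adjusted p = 0.442), and Gspt1, the termination factor eRF3a (-0.95 ± 0.31 SE, edgeR adjusted p = 0.0520). Pabpc1 was called higher without tMCAO 3 (0.0192, range 0.0192 to 0.805), and Gspt1 was called lower with upper-quartile scaling, with annotated genes only and without tMCAO 1 (0.0353, range 0.0353 to 0.193).

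The other partner genes with the smallest p in their lists were not called, and their log2 fold changes are given as values. Among stress response outputs, Atf3 was at 0.23 ± 0.17 (SE) and Ddit4, an inhibitor of mTORC1 signalling, at -0.35 ± 0.20. Among partners of the cap complex, Paip2, which displaces poly(A)-binding protein, was at -0.38 ± 0.15, Cyfip1, an eIF4E-binding protein, at 0.36 ± 0.16, and Paip1 at -0.80 ± 0.40. In non-canonical initiation and recycling, Denr was at 0.38 ± 0.17, Mcts1, which pairs with Denr, at -0.23 ± 0.18, and Abcf1 at 0.19 ± 0.17. The ribosome rescue genes Gtpbp2 and Zfp598 were at -0.69 ± 0.35 and -0.41 ± 0.25. Dnajc24, Dph3 and Dph1, which help build the diphthamide residue on eEF2, were at -0.27 ± 0.21, 0.21 ± 0.19 and 0.25 ± 0.29. The synthetase genes Qars and Mars were at 0.46 ± 0.17 and 0.73 ± 0.30, and the mitochondrial factors Gfm1 and Guf1 at 0.90 ± 0.32 and -0.66 ± 0.36. For selenocysteine incorporation, Eefsec was at 0.31 ± 0.30, Secisbp2 at 0.16 ± 0.25 and Secisbp2l at 0.08 ± 0.38.

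**Figure D5:**
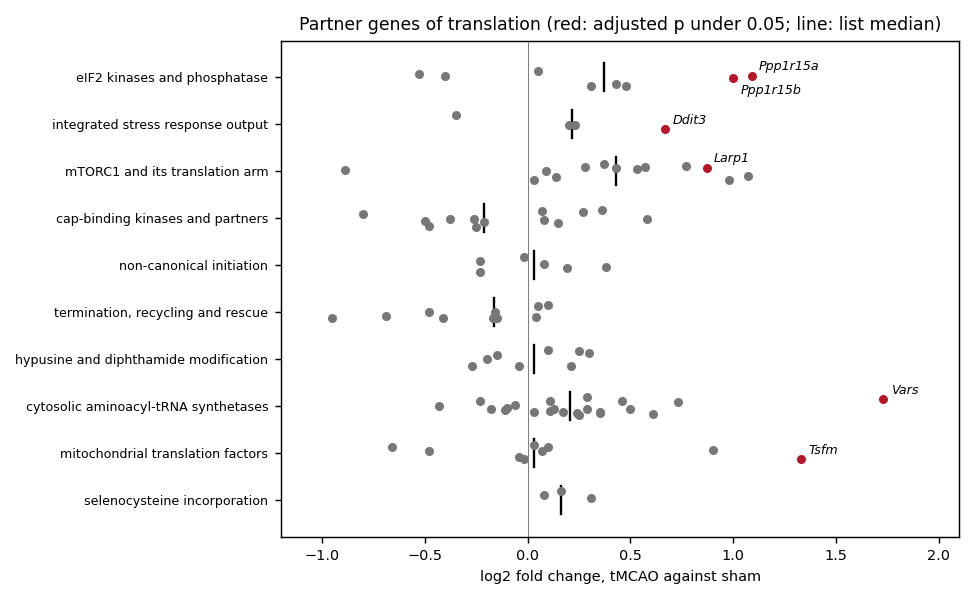
Fitted log2 fold change of tMCAO against sham (x axis) for the 96 tested partner genes in 10 lists (rows), with called genes in red and the list median as a line. The called genes are Ppp1r15a, Ppp1r15b, Ddit3, Larp1, Vars and Tsfm, at 0.67 to 1.73.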

How the data were processed

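Per the submitters' processing notes, the authors aligned the nanopore reads with minimap2. The sources used here do not state the genome build, annotation, counting rule or strand setting. The deposited count and CPM columns were read for 6 libraries, and CPM recomputed from the counts differed from the deposited CPM by at most 4.87e-06. In the table, 12 lines without values were left out. Counts were tested across all genes with edgeR 4.0.16 in R 4.3.3 (filterByExpr with a minimum count of 10, TMM, glmQLFit, glmQLFTest, Benjamini-Hochberg adjustment over 13127 genes and loci). Only the sham and tMCAO groups entered the fit, without covariates. A gene was called at an adjusted p under 0.05. TMM factors ran from 0.9204 to 1.0728 and the common biological coefficient of variation was 22.6%. The script was tested on simulated data.

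The alternatives were other scalings (RLE, upper quartile, library totals), no filter, DESeq2 1.42.0, limma voom (limma 3.58.1), a replicate block, leaving out each library, leaving out sham 1 with tMCAO 3, and annotated genes only. Members, roles and partner lists were chosen with earlier results of these data known. Named members were every called gene, 15 factors of known role and the 2 with the smallest p in each role; partners were the 3 with the smallest p in each list plus 5 regulators. Eef1d, Eef1g, Eif1, Eif1ax, Eif2s3x, Eif3j1, Eif4b, Eif4e3, Eif4g3, Eif4h and the untested members were named after their values were seen. By symbol and ID, 64 of 64 members matched GENCODE M21, in which 26 share exon bases with another gene, 16 of them with one on the opposite strand. The numbers of the libraries were not treated as pairs, since the same-number correlations were -0.209, 0.0167 and -0.174.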

Additional observations from a re-analysis of the deposited data

How the results depend on the processing

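The calls of Eif4a1 and Eif4e2 held under all 15 alternatives. The number of members higher (5) was 3 to 8 when a library was left out. The number lower (1) was 5 with upper-quartile scaling, 2 with limma voom, 4 with annotated genes only, 0 without sham 1 and tMCAO 3, and 0 to 2 when a library was left out. Changed genes in the whole table (2380) came to 4039 with no filter, 1493 with annotated genes only, 1573 without sham 1 and tMCAO 3, 1695 with DESeq2, and 1254 to 2590 when a library was left out. With upper-quartile scaling 42.2% of all calls were higher and with library totals 63.2%, against 50.6%. Partner genes higher (6) came to 1 to 8 and lower (0) to 0 to 1 when a library was left out. Partner genes lower came to 1 with upper-quartile scaling and 2 with annotated genes only. At an unadjusted edgeR p under 0.05, 18 of 96 tested partner genes passed in either direction, beside 4254 of 13127 genes and loci.

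The members' median log2 fold change (0.07) was 0.00 with upper-quartile scaling, 0.19 with library totals, 0.13 with no filter, 0.02 without sham 1 and tMCAO 3, 0.02 with annotated genes only, and 0.03 to 0.14 when a library was left out. The members' share of counts was 0.11 percentage points higher in tMCAO (1.18 against 1.28%), and 0.00 with annotated genes other than mitochondrial and ribosomal protein genes as the denominator (1.71 against 1.71%).

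Among the tested genes named with values, those with an alternative of the other sign had 0 calls. These were Dph1 (-0.01), Eif2b1 (-0.04) and Eif4e (-0.04) without sham 1 and tMCAO 3; Eif3a with upper-quartile scaling (-0.03) and annotated genes only (-0.02); Eif4a2 with library totals (0.00); Eif1ax with upper-quartile scaling (-0.01), without sham 1 and tMCAO 3 (-0.05) and without sham 1 (-0.06), sham 3 (-0.02) or tMCAO 1 (-0.02; highest 0.26); Eif2s3x with upper-quartile scaling (-0.05), annotated genes only (-0.03) and without sham 3 (-0.07 to 0.10); Eef1d with library totals (0.00) and without tMCAO 2 (-0.22 to 0.01); Eif3j1 without tMCAO 3 (-0.84 to 0.15 over the libraries left out); Eif4e3 without sham 1 (-0.30) or tMCAO 2 (-0.14; highest 0.55); Eif4ebp2 without sham 3 (-0.54 to 0.10); Secisbp2 without sham 1 (-0.02 to 0.26); and Secisbp2l with limma voom (-0.06), without sham 3 (-0.08) or without tMCAO 1 (-0.43 to 0.44). The log2 ratio of Eif4g1 to Eif4g2 (0.02) was -0.17, -0.04, -0.07 and -0.16 without sham 1, sham 2, tMCAO 1 and tMCAO 2, and at most 0.30. The cause of these changes was not tested.

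With the replicate number as a block, 4 members were higher and 1 lower, 1662 genes of the whole table changed, Secisbp2l was at -0.06, and Eif4g1 was the only member call lost (0.76, edgeR adjusted p = 0.0671). The same-numbered libraries did not deviate together, so the numbers were not read as pairs. The 7 untested members had at most 10 counts in any library, so no difference was detectable for them at this depth.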
